A study of Caenorhabditis elegans with 12 samples.

Results

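The comparison set 2 mutant strains of the nematode Caenorhabditis elegans against each other: LS292, which carries dys-1(cx18), and MT4930, which carries ced-1(n1995). Its members are the 8 mutant arrays of the 12 in the series, 4 of each strain, and they were chosen by the strain named in the labels. The other 4 arrays hold the wild-type strain N2. Each strain gave 1 array in each of 4 conditions of the Shenzhou-8 mission: a static slot in flight with microgravity and radiation (1.92 mGy), a 1 g centrifuge in flight with radiation (2.27 mGy), a static ground control, and a transport control kept in an incubator. Despite its name, the transport control was not carried to the launch site at Jiuquan. No mission time, temperature or collection time was listed for it. The worms had been made uniform as dauer larvae before loading on fresh agar, flew for 16.5 days at 23 °C and were collected 7 h after landing, and the ground controls were handled in parallel. Whole-worm total RNA was labelled with Cy3 and hybridised to NimbleGen expression arrays. The labels state that no sample was repeated, so every group here is 1 sample in each condition, the 4 conditions serve as the replicates of a strain, and p-values measure only the spread between these arrays. Because both strains are mutants, a difference can come from either one, and the wild-type arrays are given beside it to show where N2 lay.

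DYS-1 is the worm's dystrophin, a long protein under the muscle cell membrane that links the cytoskeleton to a complex of dystroglycan-like proteins, sarcoglycans, syntrophins and dystrobrevin, and through it to calcium entry and to clearance of acetylcholine. CED-1 is a receptor on engulfing cells that recognises dying neighbours, and it works with the adaptor CED-6 and the transporter CED-7. Loss of dys-1 is known for an exaggerated head bending and, with other mutations, slow muscle decay, while loss of ced-1 is known for cell corpses that persist, and ced-1 is also known to act in the expression of glutamine-rich and asparagine-rich repeat proteins and in immunity.

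Levels are log2 of the array intensity averaged per gene, and a difference is dys-1 minus ced-1, fitted by limma with the condition as a block, so a difference of 1 is a doubling. Values per array are in the order static flight, centrifuged flight, ground control, transport control. No gene of 20018 passed an adjusted p under 0.05 (0% of genes in either direction). The smallest adjusted p was 0.0726, shared by 130 genes, and 585 genes had one under 0.1. Before adjustment 3741 genes (18.7%) had a p under 0.05, a count that would be 1001 if p-values were uniform: 1966 were higher in dys-1 (9.82%) and 1775 lower (8.87%). Counts of list members below use this unadjusted threshold as a description, and those on all arrays are read against these 2 percentages. A variance model with a trend and robust estimates, run as an alternative, called 268 genes at an adjusted p under 0.05: 118 higher (0.589%) and 150 lower (0.749%). Leaving out single arrays moved the count of calls too: it was 335 without the N2 ground control array, 219 without the ced-1 centrifuged array, 3 without the ced-1 transport control array (adh-1, bca-1 and icl-1) and 2 without the dys-1 ground control array (Y46H3C.7 and F29G9.1), and 0 without each of the others.

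The 2 mutants lay farther apart in some conditions than in others. Across genes, the dys-1 and ced-1 arrays correlated at 0.929 in static flight, 0.965 in centrifuged flight, 0.936 in the ground control and 0.961 in the transport control. Genes more than 2-fold higher in dys-1 numbered 1422 in static flight and 1262 in the ground control, but 461 in centrifuged flight and 527 in the transport control. The ced-1 static flight and ground control arrays stood apart from the other ced-1 arrays: correlations between ced-1 arrays ran from 0.858 to 0.942, against 0.932 to 0.978 for dys-1 and 0.916 to 0.962 for N2, and the ced-1 ground control array had the lowest mean intensity, 902.3 against 1018.9 to 1159.6 on the others. Without these 2 arrays the unadjusted count was 1445 genes, 615 higher and 830 lower, with none called by limma. It was 2331 without the dys-1 static flight array. The main group results below are therefore also given without the ced-1 static flight and ground control arrays, a choice made after the data had been seen. Fewer genes of any kind pass with fewer arrays, so those counts are read against the 615 higher and 830 lower of 20018 genes. With single mutant arrays left out, the background was 1219 to 2151 genes higher and 1110 to 1956 lower. Scan dates or hybridisation batches were not given in the sources used here, so array and worm sample cannot be told apart.

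The 2 mutated genes were checked first, as a test of the strain labels. The ced-1 transcript was 10.15, 10.26, 10.51 and 10.68 in dys-1, and 9.84, 9.96, 9.56 and 10.28 in the ced-1 strain. It was lower in the ced-1 strain in all 4 conditions, although the ranges of the strains overlapped, and N2, at 9.89, 9.89, 10.13 and 10.45, lay between them in 3 conditions and below both in centrifuged flight. The difference was 0.49, with p = 0.0857 in a two-sided exact permutation test of the 8 arrays (0.171 adjusted over the 2 genes), where the smallest p possible is 0.0286, and with p = 0.125, the smallest possible, when arrays were swapped within conditions. Of the 3 transcript features of ced-1, Y47H9C.4a differed by 0.88, Y47H9C.4d by 0.34 and Y47H9C.4b by 0.26. In the ced-1 strain Y47H9C.4a was 9.18, 9.94, 8.68 and 10.31, lowest in static flight and the ground control. In static flight Y47H9C.4b was higher in the ced-1 strain, at 10.37 against 10.21 in dys-1. The dys-1 transcript was dim, at 7.30, 7.77, 7.29 and 8.68 in its own mutant and 7.65, 7.45, 7.32 and 8.17 in ced-1. The dys-1 difference was 0.11 in an exact permutation test of the same kind (p = 0.8), and its sign turned to -0.19 without the dys-1 transport control array. Where the probes lie against either mutation was not given in the sources used here, so neither transcript settles a label.

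The dystrophin complex was the nearest functional neighbourhood of dys-1, and its 16 measured members had a median difference of 0.17, against -0.04 over all genes. At the unadjusted threshold 1 of the 16 was higher and 1 lower, and 0 and 1 without the 2 ced-1 arrays (median 0.18). The one lower on all arrays was sgcb-1, the beta-sarcoglycan, at 7.71, 8.48, 7.81 and 8.04 in dys-1 and 8.77, 8.58, 9.27 and 9.03 in ced-1. Its strains did not overlap, and the difference was -0.90 ± 0.24 (SE; limma adjusted p = 0.0952). N2 was at 8.67 ± 0.26 (SD, n = 4), between the strains and closer to ced-1. Among the other partners the syntrophin stn-1 was 0.64 ± 0.25 higher (limma adjusted p = 0.184) and the syntrophin stn-2 0.39 ± 0.21 higher (adjusted p = 0.332), both with overlapping arrays.

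Genes of muscle contraction and of the acetylcholine synapse showed little common shift, while calcium handling genes past the unadjusted threshold were all higher in dys-1. The 30 sarcomere genes had a median of 0.08, with 4 higher and 3 lower at the unadjusted threshold, and 1 and 0 without the 2 ced-1 arrays (median -0.02). The pharyngeal myosin heavy chain myo-2 was 12.89, 12.98, 12.56 and 13.44 in dys-1 against 12.05, 12.41, 11.15 and 12.80 in ced-1, a difference of 0.86 ± 0.23 (limma adjusted p = 0.0958). The dys-1 arrays were higher in every condition, with overlap only through the ced-1 transport control. The troponin T gene tnt-3 was 1.10 ± 0.34 higher (adjusted p = 0.125) and the troponin I gene tni-3 0.72 lower (-0.72 ± 0.22, adjusted p = 0.121).

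For muscle calcium and excitation, 6 of 21 genes were higher and none lower (median 0.36). The higher count ran from 2 to 7 over single mutant arrays left out, and without the 2 ced-1 arrays none reached the threshold (median 0.27). They included the calpain clp-4 (1.13 ± 0.32), the voltage-gated calcium channel egl-19 (0.75 ± 0.28) and the inositol trisphosphate receptor itr-1 (0.56 ± 0.19), with limma adjusted p-values of 0.101, 0.178 and 0.141. At the acetylcholine synapse 4 of 28 were higher (14.3%, against 9.82% of all genes) and none lower. The median was 0.09, and -0.01 in centrifuged flight. The higher count ran from 2 to 7 over single mutant arrays left out and was 2 without the 2 ced-1 arrays (median 0.13). One of the 4 was ace-1, an acetylcholinesterase that clears the transmitter at muscle, at 9.30, 8.81, 9.20 and 9.82 in dys-1 and 8.38, 8.29, 7.81 and 9.06 in ced-1. The dys-1 array was the higher in each condition, by 0.90 ± 0.20 overall (limma adjusted p = 0.0726), and N2, at 9.04 ± 0.33 (SD, n = 4), was closer to dys-1. The receptor accessory gene molo-1 was 9.17, 9.18, 8.49 and 9.60 in dys-1 and 7.94, 8.24, 8.27 and 8.39 in ced-1, with no overlap and a difference of 0.90 ± 0.22 (adjusted p = 0.085). The choline transporter cho-1 was 0.80 ± 0.31 higher (adjusted p = 0.188). In muscle attachment the direction was mostly opposite: 6 of 27 were lower and 1 higher (median -0.29), with the type IV collagen emb-9 at -0.67 ± 0.20, the intermediate filament mua-6 at -0.67 ± 0.24 and the hemicentin him-4, the higher one, at 0.94 ± 0.28 (limma adjusted p 0.119, 0.163 and 0.109). None of the 27 reached the threshold without the 2 ced-1 arrays.

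The pathway around CED-1 had more members higher in dys-1 than lower. Of 29 corpse engulfment genes, 10 were higher and 2 lower at the unadjusted threshold (median 0.27), the higher count ran from 5 to 11 over single mutant arrays left out, and was 2 without both ced-1 arrays. The 10 include the mutated gene ced-1 itself (0.49 ± 0.19, limma adjusted p = 0.186). The largest was ced-7, which encodes the ABC transporter that acts with CED-1 in corpse recognition, at 9.15, 10.12, 9.14 and 9.58 in dys-1 and 7.85, 8.72, 8.47 and 8.88 in ced-1. No ced-1 array reached the lowest dys-1 array, the difference was 1.02 ± 0.22 (limma adjusted p = 0.0726), and N2, at 8.64 ± 0.27 (SD, n = 4), lay beside ced-1. The lipid kinase vps-34, which marks phagosomes for digestion, was 0.62 ± 0.18 higher (adjusted p = 0.105), and the small GTPase rab-14, which acts in phagosome maturation, 0.84 ± 0.29 higher (adjusted p = 0.148). Core apoptosis genes showed 4 of 25 higher and 1 lower, with a median that changed sign between scalings, from -0.01 after median centring to 0.06 after quantile normalization. Without the 2 ced-1 arrays 2 were higher and none lower (median 0.05). The 3 with the largest difference were cell-death-related nuclease genes: crn-3 at 1.02 ± 0.24, crn-2 at 0.98 ± 0.34 and crn-5 at 0.89 ± 0.26 (limma adjusted p 0.0807, 0.153 and 0.109).

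The pqn and abu genes, which encode the glutamine-rich and asparagine-rich repeat proteins linked to ced-1 in earlier work, split in both directions. Of 70 measured, 25 were lower in dys-1 and 11 higher, with a median of -0.09. The lower count ran from 13, without the dys-1 static flight array, to 25 over single mutant arrays left out, and was 4 without the 2 ced-1 arrays. The 3 members with the largest difference were all higher in dys-1. The gene pqn-25 was 9.63, 9.57, 9.26 and 10.53 in dys-1 and 7.85, 9.20, 7.97 and 9.04 in ced-1, a difference of 1.24 ± 0.33 (limma adjusted p = 0.0976) with no overlap. For pqn-59 the levels were 15.02, 15.23, 14.45 and 14.74 in dys-1 and 12.56, 14.61, 12.67 and 14.49 in ced-1. Its ced-1 values fell into a low pair, static flight and ground control, and a pair near the dys-1 level, and N2 was at 14.50 ± 0.32 (SD, n = 4). The third, pqn-62, differed by 1.31 ± 0.34 (adjusted p = 0.0877).

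**Figure D1:**
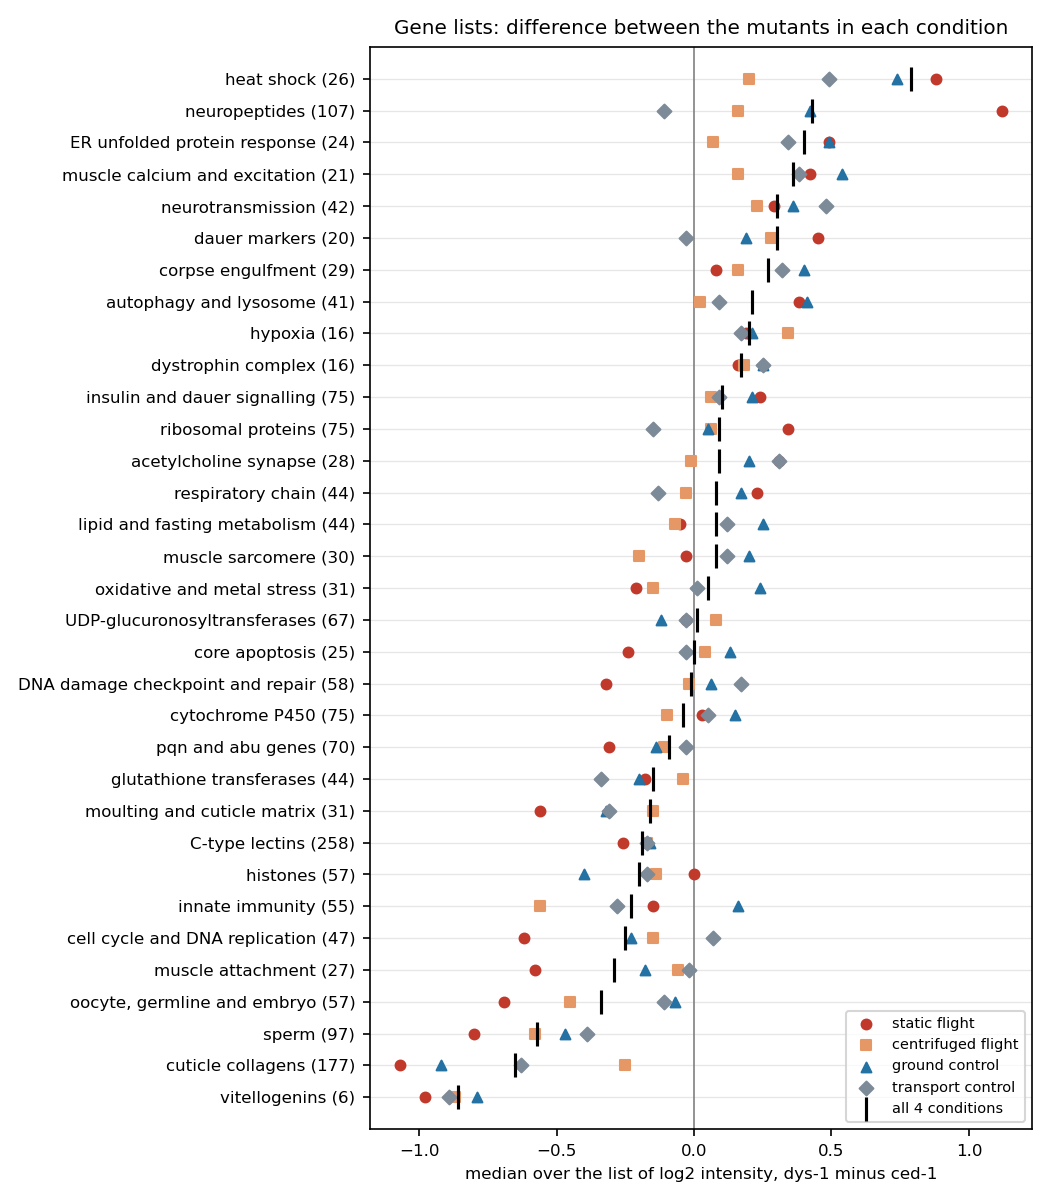
Median over each gene list of the log2 intensity difference, dys-1 minus ced-1, in each condition (coloured symbols) and in the fit over all 4 conditions (black bars), with the number of genes measured in brackets. Vitellogenins, cuticle collagens and sperm genes lay below 0 in all 4 conditions and heat shock genes above 0, while neuropeptides ranged from -0.11 in the transport control to 1.12 in static flight.

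Among the lists, cuticle collagens had the most genes past the unadjusted threshold. Collagens of the cuticle, the cross-linked outer coat that is remade at each moult, were lower in dys-1 for 103 of 177 genes and higher for 1, with a median of -0.65. The trended and robust model called 34 of them, all lower. The plot of list medians by condition shows that the shift had the same sign throughout: -1.07 in static flight, -0.25 in centrifuged flight, -0.92 in the ground control and -0.63 in the transport control. Without the 2 ced-1 arrays it was -0.42, with 37 genes lower and 1 higher. Relative to N2 the list median was -0.40 for dys-1 and 0.22 for ced-1.

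Single collagens also varied widely with condition in every strain. The collagen col-71 was 12.51, 11.63, 11.60 and 8.86 in dys-1 against 14.04, 12.08, 13.41 and 10.28 in ced-1, with N2 at 13.50, 12.33, 12.30 and 10.39. The transport control was the lowest array of each strain and the ranges overlapped, but dys-1 was below ced-1 in each condition, by -1.30 ± 0.25 in the fit (limma adjusted p = 0.0726). For col-38 the difference was -1.18 ± 0.26 with the same adjusted p. The third collagen named, col-33, was highest in the transport control, at 9.64 for dys-1 and 11.88 for ced-1, and differed by -1.18 ± 0.33 (adjusted p = 0.102). Collagen genes are alike in sequence and can share probe signal, so their single values are uncertain.

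Other parts of the cuticle programme moved less. Of 31 moulting and cuticle matrix genes, 10 were lower and 2 higher (median -0.16), and 2 were lower without the 2 ced-1 arrays. The cuticlin cut-2 was 12.22, 11.75, 12.49 and 10.75 in dys-1 and 13.36, 12.07, 14.04 and 11.57 in ced-1. It was lower in dys-1 in each condition, by -0.96 ± 0.22 (limma adjusted p = 0.0747). The moulting gene mlt-8 differed by -0.83 ± 0.27 and the hedgehog-related gene wrt-10 by -0.74 ± 0.23 (adjusted p 0.131 and 0.121). The 3 hypodermis markers dpy-7, col-10 and lin-26 had summed intensities of 8750 to 12892 in dys-1 and 14206 to 17302 in ced-1, ranges that did not overlap, with N2 at 10861 to 12781. Because dpy-7 and col-10 are themselves cuticle collagen genes, this sum is not a measure separate from the collagen result. The part of hypodermal content in the collagen result was not tested. In RNA from whole worms, fewer cells of a type and less RNA per cell cannot be told apart.

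A run of 6 neighbouring genes expressed in the epidermis, nlp-27 to nlp-31 and nlp-34, was lower in dys-1 at every member. It was singled out after the values had been seen, as 1 of 6 stretches of at least 5 adjacent genes that all passed the unadjusted threshold in the same direction. These genes encode short secreted peptides, and nlp-29 and nlp-31 are known as antimicrobial peptides induced by fungal infection and wounding. Levels of nlp-31 were 9.34, 9.86, 10.04 and 9.90 in dys-1 against 10.61, 10.80, 11.57 and 10.69 in ced-1. The strains did not overlap, and N2, at 10.31, 10.12, 10.76 and 10.86, lay above every dys-1 array. The differences were -1.13 ± 0.21 for nlp-31, -1.16 ± 0.24 for nlp-30, -1.11 ± 0.22 for nlp-34 and -0.94 ± 0.20 for nlp-28, each with a limma adjusted p of 0.0726. They were -0.97 ± 0.22 for nlp-29 (adjusted p = 0.0747) and -0.69 ± 0.19 for nlp-27 (0.102).

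In this stretch all 6 genes stayed at the unadjusted threshold without the 2 ced-1 arrays, with a median of -0.83 against -1.04 on all arrays, and the trended and robust model called 5. The stretch was picked by that threshold on the same arrays, so these counts are a description and not separate support. The arrays of the strains did not overlap for nlp-27, nlp-28, nlp-31 and nlp-34, where 2.53% of all genes were lower in dys-1 without overlap. Relative to N2 the median was -0.76 for dys-1 and 0.21 for ced-1. Members of the stretch are alike in sequence and may share probe signal. The other stretches were F01D5.1 to F01D5.6 (5 genes, median -0.66), pqn-63 with idpc-4 to idpc-7 (5 genes, -0.82), nspc-1 to nspc-5 with nspc-7 (6 genes, -0.69), a stretch from F15H10.9 to apc-10 that includes col-12 and col-13 (6 genes, -0.66), and phkb-1 to clec-173, the only one higher in dys-1 (5 genes, 0.59).

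Wider immune gene sets had weaker negative medians, with members in both directions. Of 55 innate immunity genes 14 were lower and 7 higher (median -0.23), and 15 were lower and none higher without the 2 ced-1 arrays. The list includes nlp-29, nlp-31 and nlp-34 of the stretch above. The caenacin cnc-6 went the other way, at 9.37, 9.40, 7.38 and 7.14 in dys-1 and 6.58, 6.90, 6.94 and 8.50 in ced-1: it was higher in dys-1 in flight and lower in the transport control, for a fitted difference of 1.10 ± 0.51 (limma adjusted p = 0.266). The other higher members were nsy-1 (1.08 ± 0.26), pmk-1 (0.82 ± 0.24), sek-1 (0.78 ± 0.24), lys-3 (1.08 ± 0.49), zip-2 (0.71 ± 0.31) and hlh-30 (0.56 ± 0.23). Their limma adjusted p-values were 0.0847, 0.107, 0.124, 0.257, 0.237 and 0.208. Of 258 C-type lectins, secreted proteins with carbohydrate-binding domains, 27 were lower and 9 higher (median -0.19), and 14 and 3 without the 2 ced-1 arrays (median -0.12). The lower share, 10.5%, was near the 8.87% of all genes, and the higher share was 3.49% against 9.82%. The lectin clec-208 was dim but separated the strains, at 6.38, 6.29, 6.54 and 5.78 in dys-1 and 7.99, 7.11, 7.91 and 7.09 in ced-1. Its difference was -1.28 ± 0.26 (adjusted p = 0.0726). The lectin clec-133 differed by -0.96 ± 0.20 with the same adjusted p, and clec-9 by 1.16 ± 0.48 (adjusted p = 0.219).

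Sperm genes past the threshold were nearly all lower in dys-1. Of 97 sperm genes 55 were lower and 1 higher, with a median of -0.57. The medians by condition were all negative in the plot of lists, and without the 2 ced-1 arrays 31 were lower and none higher (median -0.49). The sperm gene ssq-2 was 10.64, 10.82, 10.72 and 8.38 in dys-1 and 12.27, 11.19, 11.51 and 9.58 in ced-1. The transport control was lowest in both strains, and the difference was -1.0 ± 0.23 (limma adjusted p = 0.0783). The genes msd-1 and msd-4, which encode proteins with the major sperm protein domain, differed by -0.94 ± 0.21 and -0.93 ± 0.25 (adjusted p 0.0747 and 0.0974). Sperm genes form near-identical families, so single values are uncertain.

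Yolk genes past the threshold were also lower, whereas oocyte genes had counts near the background at that threshold but mostly the same sign. Of 6 vitellogenins, the yolk proteins made in the adult intestine, 4 were lower and none higher (median -0.86), and 2 were lower without the 2 ced-1 arrays (median -0.70). Levels of vit-5 were 10.86, 10.48, 9.82 and 8.02 in dys-1 against 11.90, 11.60, 10.79 and 9.78 in ced-1, with N2 at 11.62, 10.70, 10.13 and 9.86. In each condition dys-1 was the lowest of the 3 strains, and the difference from ced-1 was -1.22 ± 0.25 (limma adjusted p = 0.0726). The related vit-4 and vit-6 differed by -0.96 ± 0.29 and -0.86 ± 0.33 (adjusted p 0.11 and 0.181). Of 57 oocyte, germline and embryo genes 6 were lower (10.5%) and 4 higher (7.02%), with a median of -0.34. The lower count ran from 1, without the dys-1 transport control array, to 25 over single mutant arrays left out, and was 0 without the 2 ced-1 arrays (median -0.05). By sign alone, 41 of the 57 had a negative difference and 16 a positive one. Lower in dys-1 in all 4 conditions were 23, and higher in all 4 were 4, against 13.2% and 13.5% of all genes.

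The oocyte list included the maternal RNA-binding gene pos-1 (-1.09 ± 0.39), the eggshell gene cpg-2 (-1.01 ± 0.37) and egg-4 (-0.92 ± 0.30), a regulator of the passage from egg to embryo, with limma adjusted p-values of 0.159, 0.171 and 0.135. In N2 the transport control was the highest array for pos-1 at 14.03, against 12.43 to 13.39 in the other conditions. Cell cycle and replication genes had 2 of 47 lower and 1 higher (median -0.25), and the lower count ran from 0 to 20 over single mutant arrays left out. Without the 2 ced-1 arrays 4 were higher and none lower (median 0.04). In this list the cyclin cyb-2.2 differed by -0.82 ± 0.34, the replication clamp pcn-1 by -0.61 ± 0.24 and the licensing factor cdc-6 by 0.71 ± 0.24 (adjusted p 0.222, 0.201 and 0.143).

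Markers of adult stage and germline were lower in dys-1 on most arrays. Summed intensity of 33 sperm markers ran from 33723 to 110748 in dys-1 and from 51782 to 194342 in ced-1, that of 6 yolk genes from 5432 to 17692 and from 9130 to 28125, and that of 7 oocyte and embryo markers from 6737 to 20216 and from 9810 to 42892. In the ground control the yolk sum was the higher one in dys-1, at 17692 against 16579 in ced-1. The yolk markers are the vitellogenin list itself and the sperm markers are part of the sperm list, so neither is a separate measure. At the unadjusted threshold 28 of the 33 sperm markers, 4 of the 6 yolk genes and 2 of the 7 oocyte markers were lower in dys-1, and none was higher. The adult cuticle markers col-7, col-19 and rol-6, which are also collagen genes, summed to 1091 to 7067 in dys-1 and 1241 to 20057 in ced-1. Sums of 4 genes each for muscle (53279 to 66525 against 55378 to 70632) and gut (68989 to 105034 against 84435 to 103628) overlapped. Dauer markers cut-1, col-2 and col-40 peaked in the transport control of both strains, at 19847 in dys-1 and 24101 in ced-1. The part of age structure or stage in the collagen, yolk and germline results was not tested.

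**Figure D2:**
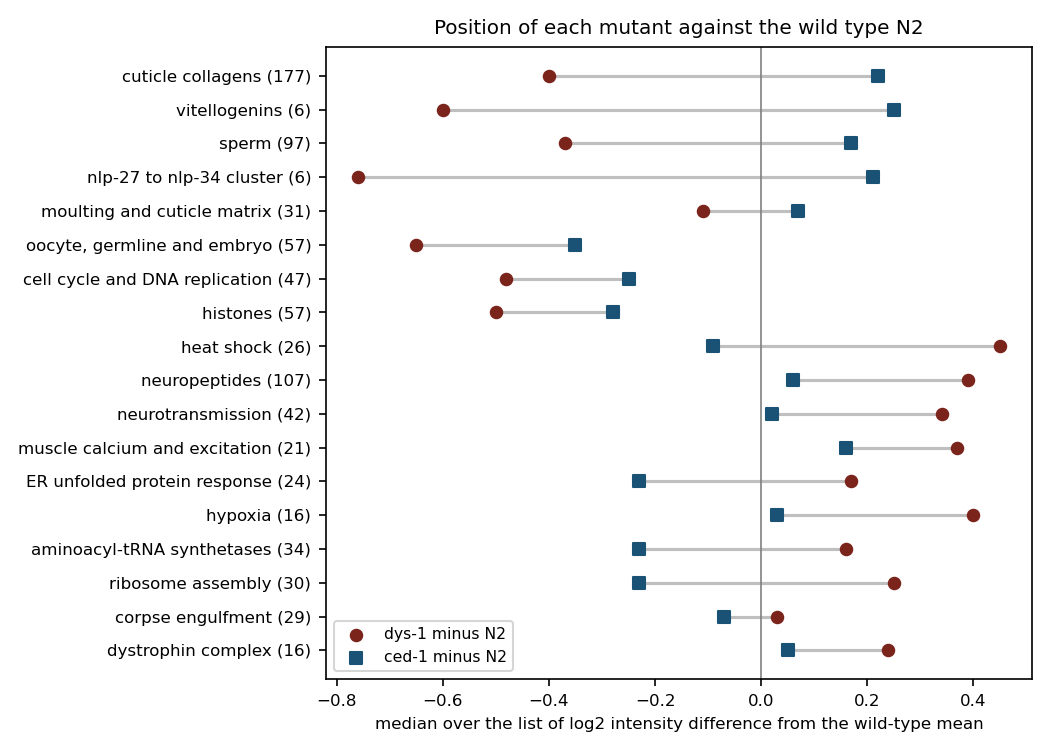
Median difference of each mutant from the wild-type N2 mean for selected gene lists, in log2 intensity, with circles for dys-1 and squares for ced-1 and the number of genes in brackets. For collagens, vitellogenins, sperm genes and the nlp stretch dys-1 lay below N2 and ced-1 above it, whereas for oocyte, cell cycle and histone genes both mutants lay below.

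Histone and DNA repair genes showed small or mixed differences. Of 57 histones 7 were lower and 4 higher (median -0.20), and none was lower without the 2 ced-1 arrays. The linker histone hil-1 was 12.47, 12.57, 11.95 and 12.27 in dys-1 and 9.24, 12.51, 9.67 and 12.23 in ced-1. The ced-1 centrifuged and transport control arrays matched dys-1 to within 0.1, so the difference of 1.41 ± 0.44 (limma adjusted p = 0.126) came from the static flight and ground control pairs. The linker histone hil-3 differed by 0.91 ± 0.27 and the core histone gene his-62 by -0.79 ± 0.32 (adjusted p 0.108 and 0.208). The DNA damage and repair list had 2 of 58 genes higher and 4 lower, and its median was -0.01. Without the 2 ced-1 arrays 2 were higher and none lower (median 0.09). Named members were the helicase rcq-5 (0.74 ± 0.28), the endonuclease exo-3 (-0.63 ± 0.26) and parp-1 (-0.62 ± 0.23), with adjusted p-values of 0.175, 0.209 and 0.174.

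Chaperones were the list with the largest median in the other direction. Of 26 heat shock genes 16 were higher in dys-1 and none lower, with a median of 0.79. The medians were 0.88 in static flight, 0.20 in centrifuged flight, 0.74 in the ground control and 0.49 in the transport control, and without the 2 ced-1 arrays 4 genes were higher (median 0.44). The heat-inducible chaperone hsp-70 was 10.75, 11.08, 11.63 and 9.67 in dys-1, and 7.62, 10.07, 7.81 and 9.67 in ced-1. The strains were equal in the transport control and 3 to 4 log2 units apart in static flight and the ground control, for a difference of 1.99 ± 0.48 (limma adjusted p = 0.0845).

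Another Hsp70 gene, F44E5.4, was 11.86, 12.44, 12.53 and 12.36 in dys-1 and 9.44, 11.28, 10.15 and 11.72 in ced-1. Every dys-1 array was above every ced-1 array, with a difference of 1.65 ± 0.41 (adjusted p = 0.085), although Hsp70 genes are alike and may share probe signal. N2 ranged from 9.34 to 11.64 for this gene. The small heat shock gene hsp-12.6 differed by 1.77 ± 0.58 (limma adjusted p = 0.137), and it is taken up with the flight-dependent genes. In the endoplasmic reticulum unfolded protein response, 9 of 24 genes were higher and none lower (median 0.40). The higher count ran from 4, without the dys-1 static flight array, to 11 over single mutant arrays left out, and was 1 without the 2 ced-1 arrays. The stress sensors pek-1 (1.11 ± 0.30) and atf-6 (0.86 ± 0.23) and the chaperone enpl-1 (0.70 ± 0.22) were among them (adjusted p 0.097, 0.0922 and 0.126). A further sensor, ire-1, was not, at 0.40 ± 0.22 (limma adjusted p = 0.337).

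Among genes of protein synthesis outside the ribosome itself, those past the unadjusted threshold were nearly all higher in dys-1. The lists of aminoacyl-tRNA synthetases and of ribosome assembly genes were both drawn up after seeing the values. Their counts beside all genes are therefore a description and not a test. Of 34 aminoacyl-tRNA synthetases, the enzymes that charge transfer RNA, 16 were higher and 1 lower (median 0.37), and the strains did not overlap for 12, against 3.31% of all genes higher in dys-1 without overlap and 2.53% lower. Without the 2 ced-1 arrays 10 were higher. The valine enzyme vars-1 was 8.66, 8.47, 8.30 and 8.80 in dys-1 and 7.96, 7.38, 6.80 and 7.59 in ced-1. No ced-1 array reached dys-1, and the difference was 1.12 ± 0.21 (limma adjusted p = 0.0726), with N2 at 8.07 ± 0.13 (SD, n = 4) between them. Those for serine, leucine and isoleucine, sars-1, lars-1 and iars-1, differed by 1.31 ± 0.30, 1.07 ± 0.25 and 0.87 ± 0.21 (adjusted p 0.0747, 0.0801 and 0.0824), also without overlap.

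Of 30 ribosome assembly genes, 11 were higher and none lower (median 0.33), and 2 were higher without the 2 ced-1 arrays. The assembly factor tag-151 was 12.80, 12.88, 12.30 and 12.67 in dys-1 and 10.13, 12.09, 10.29 and 11.60 in ced-1, a difference of 1.64 ± 0.37 (limma adjusted p = 0.0747) without overlap. The ced-1 arrays again divided into a low pair, static flight and ground control, and a higher pair. Nucleolar GTPases showed the same division: ngp-1 differed by 1.55 ± 0.38, nog-1 by 1.41 ± 0.35 and nst-1 by 1.33 ± 0.35 (adjusted p 0.0847, 0.0869 and 0.0941). In N2 the nog-1 level was 12.77 in static flight and 14.19 in the ground control. Ribosomal proteins themselves did not share this: 1 of 75 was higher and 1 lower, and the median of 0.09 became -0.05 after quantile normalization and -0.03 without the 2 ced-1 arrays. The 3 with the largest difference were rpl-21 at 0.60 ± 0.26, rpl-42 at -0.55 ± 0.21 and rps-8 at 0.39 ± 0.20 (adjusted p 0.233, 0.192 and 0.319).

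Neuropeptide genes divided by condition. Of 107 neuropeptide genes 23 were higher in dys-1 and 13 lower, with a median of 0.43. The median was 1.12 in static flight and -0.11 in the transport control, the higher count ran from 3, without the dys-1 static flight array, to 44 over single mutant arrays left out, and without the 2 ced-1 arrays the median was -0.11, with 2 higher and 10 lower. The list's 13 lower genes include the 6 epidermal nlp genes. Among those higher, nlp-66 was 8.32, 8.24, 7.60 and 9.48 in dys-1 and 6.55, 7.12, 6.79 and 8.57 in ced-1. The dys-1 array was higher in each condition, by 1.15 ± 0.24 (limma adjusted p = 0.0726).

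Of 42 genes of neurotransmission, 12 were higher and 1 lower (median 0.30). The list medians were 0.29, 0.23, 0.36 and 0.48 in the 4 conditions, all above 0. The higher count ran from 6 to 14 over single mutant arrays left out and was 2 without both ced-1 arrays. The glutamate-gated chloride channel genes avr-14 and glc-1 differed by 0.88 ± 0.22 and 0.82 ± 0.33, and the octopamine receptor octr-1 by 0.83 ± 0.23 (adjusted p 0.0869, 0.199 and 0.103). The convertase egl-3, which cleaves neuropeptide precursors, was named after its values were seen: it was 13.36, 13.55, 13.38 and 14.15 in dys-1 and 10.70, 13.00, 11.11 and 12.98 in ced-1. The 2 lowest values were again the ced-1 static flight and ground control arrays. The difference was 1.66 ± 0.37 (limma adjusted p = 0.0747). A neuron marker sum (unc-64, snb-1, rab-3 and egl-3) was 7704 and 9378 on these 2 arrays, 21531 and 23837 on the other 2 ced-1 arrays, and 22090 to 33989 in dys-1. For N2 the marker sum was also lowest in static flight, at 11831, against 15971 in centrifuged flight, 23651 in the ground control and 22094 in the transport control. The first 3 of these markers are also members of the neurotransmission list, whose median was highest in the transport control. The part of neuron content in the neuropeptide result was not tested.

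**Figure D3:**
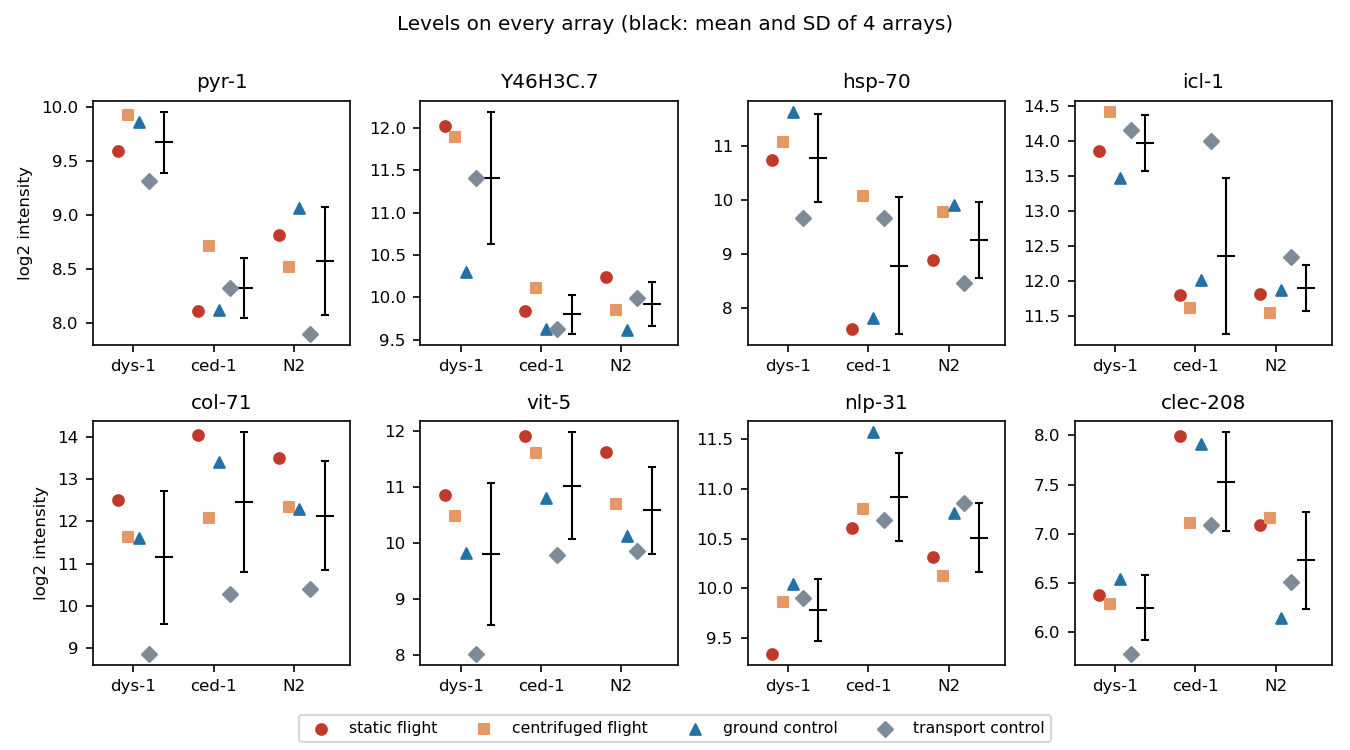
Log2 intensity of 8 genes on every array, by strain, with symbols for the 4 conditions and the mean and SD of 4 arrays in black. The dys-1 and ced-1 arrays do not overlap for pyr-1, Y46H3C.7, nlp-31 and clec-208. Within the dys-1 range lie the ced-1 centrifuged array for hsp-70 and the ced-1 transport control array for icl-1. For col-71 and vit-5 levels vary more with condition than with strain.

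Single genes with the smallest p-values were mostly outside the lists. The 5 with the smallest p among those higher in dys-1 in all 4 conditions were Y46H3C.7, F41B5.6, pyr-1, F22E12.1 and C28H8.3, all at a limma adjusted p of 0.0726, and their strains did not overlap. The gene pyr-1 encodes the enzyme of the first steps of pyrimidine synthesis, and it was 9.59, 9.92, 9.86 and 9.31 in dys-1 against 8.11, 8.71, 8.12 and 8.32 in ced-1, with N2 at 8.81, 8.52, 9.06 and 7.90. Every N2 array lay below every dys-1 array. The difference was 1.35 ± 0.23, a ratio of 2.56.

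The level of Y46H3C.7 was 12.02, 11.90, 10.30 and 11.41 in dys-1 against 9.84, 10.11, 9.63 and 9.62 in ced-1, and 9.61 to 10.24 in N2. Only the dys-1 ground control approached the other strains, and the difference was 1.61 ± 0.25. The others differed by 1.61 ± 0.26 for F41B5.6, 1.59 ± 0.27 for F22E12.1 and 1.38 ± 0.24 for C28H8.3. For all 5 the N2 mean was nearer to ced-1 than to dys-1.

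The 5 of smallest p that were lower in all 4 conditions were C29F9.9, W08E12.2, smex-2, C02E7.6 and nlp-31, also at 0.0726. C29F9.9 was 8.67, 9.17, 8.60 and 7.47 in dys-1 against 10.17, 9.89, 9.74 and 9.73 in ced-1, with N2 at 9.80, 9.97, 9.57 and 9.18. The dys-1 arrays were below those of both other strains, and the difference from ced-1 was -1.40 ± 0.23. For smex-2, the strains also did not overlap (-1.23 ± 0.23). For W08E12.2 (-1.21 ± 0.21) and C02E7.6 (-1.17 ± 0.22) they overlapped, since levels differed among conditions in both strains. Under the trended and robust model each of these 10 genes had an adjusted p of 0.0333.

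Over the 1966 genes higher in dys-1 at the unadjusted threshold, the N2 mean was nearer to ced-1 for 1494 (76.0%), and over the 1775 lower for 1174 (66.1%). Among all genes, irrespective of any p, the shares were 58.4% where the dys-1 mean was above ced-1 and 60.3% where it was below. For the genes of the trended and robust model they were 98 of 118 (83.1%) and 136 of 150 (90.7%). The N2 arrays shared in the estimate of spread, and no test was made on these shares. In the plot of list medians against the wild type, synthetases, ribosome assembly, the unfolded protein response and heat shock had N2 between the mutants, and neurotransmission and hypoxia had N2 close to ced-1.

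Among the genes named here the largest fitted difference between the strains was that of acs-2. This acyl-CoA synthetase, which activates fatty acids for mitochondrial breakdown and is known to be induced by fasting, was 13.40, 13.80, 11.99 and 12.38 in dys-1 against 8.51, 8.48, 10.07 and 12.78 in ced-1, with N2 at 8.74, 8.99, 9.70 and 10.90. The dys-1 level was high throughout, while ced-1 and N2 were low in flight and highest in the transport control. The fitted difference was 2.93 ± 0.66, a ratio of 7.64 (limma adjusted p = 0.0747). It passed when the transport control arrays of all strains were left out, the one condition where dys-1 was below ced-1. Under the trended and robust model it did not pass (limma adjusted p = 0.168). The bifunctional glyoxylate cycle enzyme icl-1, which lets worms make sugar from fat, was 13.87, 14.42, 13.48 and 14.17 in dys-1 against 11.80, 11.62, 12.01 and 14.01 in ced-1, with N2 at 11.82, 11.54, 11.88 and 12.34.

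For icl-1 the ced-1 transport control was the one array outside dys-1 that reached its range, and the difference was 1.62 ± 0.33 (limma adjusted p = 0.0726). Without that array icl-1 was called, at an adjusted p of 0.0204. The desaturase fat-5 was 12.72, 13.21, 11.70 and 10.95 in dys-1 and 10.59, 10.46, 10.95 and 11.46 in ced-1, higher in 3 conditions and lower in the transport control (1.28 ± 0.44, adjusted p = 0.147). Across the 44 genes of lipid and fasting metabolism 8 were higher and 3 lower (median 0.08), and 5 and 1 without the 2 ced-1 arrays (median 0.05). In the respiratory chain 2 of 44 were higher and 1 lower, with a median of 0.08 that became -0.02 after quantile normalization and also without the 2 ced-1 arrays. There sdha-1, a subunit of succinate dehydrogenase, was 12.11, 12.12, 12.03 and 12.30 in dys-1 and 11.13, 11.44, 11.16 and 11.66 in ced-1. The strains did not overlap, with a difference of 0.79 ± 0.18 (adjusted p = 0.0747), while lpd-5, a complex I subunit, was -0.50 ± 0.18 and cox-10 0.46 ± 0.32 (adjusted p 0.159 and 0.465).

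Signalling and stress lists with more genes higher than lower were insulin and dauer signalling (14 of 75 higher, 3 lower, median 0.10), dauer markers (8 of 20 and 1, median 0.30), autophagy and lysosome (8 of 41 and none, median 0.21) and hypoxia (6 of 16 and none, median 0.20). Without the 2 ced-1 arrays the higher counts were 3, 3, 1 and 0. The 8 higher dauer markers were not a separate set. Among them hsp-70, hsp-12.6 and hsp-12.3 are also in the heat shock list, icl-1 in the lipid list and hil-1 in the histone list. The rest were pck-2, tps-1 and tps-2. The dauer stage markers cut-1, col-2 and col-40 differed by 0.34 ± 0.50, 0.02 ± 0.33 and -0.38 ± 0.26. The corepressor din-1, a partner of the nuclear receptor DAF-12, was 10.95, 11.18, 10.96 and 11.28 in dys-1 and 9.49, 10.34, 9.66 and 10.66 in ced-1, without overlap (1.05 ± 0.23, limma adjusted p = 0.0726). The receptor gene daf-12 differed by 0.84 ± 0.30 and the insulin receptor substrate ist-1 by 1.23 ± 0.29 (adjusted p 0.157 and 0.0801). The autophagy receptor sqst-1 was 1.10 ± 0.28 higher, the proton pump subunit vha-13 0.70 ± 0.20 and epg-5 0.72 ± 0.27 (adjusted p 0.0869, 0.103 and 0.175).

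The hypoxia factor hif-1 was 12.18, 12.45, 12.05 and 12.46 in dys-1 and 11.48, 11.74, 10.77 and 11.96 in ced-1. It did not overlap between the strains and differed by 0.80 ± 0.24 (limma adjusted p = 0.11), while cysl-2 and F22B5.4 of the same list differed by 0.95 ± 0.33 and 0.90 ± 0.40 (0.149 and 0.251). Among detoxification families, 6 of 75 cytochrome P450 genes were higher and 7 lower, 7 and 4 of 67 UDP-glucuronosyltransferases, and 3 and 4 of 31 oxidative and metal stress genes. Of 44 glutathione transferases 9 were lower (20.5%) and 5 higher, and 6 were lower and none higher without the 2 ced-1 arrays. The glucuronosyltransferase ugt-23 separated the strains, at 9.70, 10.11, 9.44 and 8.73 in dys-1 and 8.55, 8.65, 8.15 and 8.49 in ced-1 (1.04 ± 0.22, adjusted p = 0.0726), and so did the glutathione transferase gst-28 (-0.97 ± 0.25, adjusted p = 0.0869).

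The design also allowed the mutant difference to be set between flown and control conditions, 2 of each. No gene passed this interaction test (0%; limma, smallest adjusted p 0.133), and 959 were under an unadjusted 0.05: 472 with a higher difference in flight (2.36%) and 487 with a lower one (2.43%), about the number that uniform p-values would give. The 5 genes of smallest p in the first direction were lys-3, acs-2, C23H5.11, tyr-5 and scl-20. For acs-2 the difference between the mutants was 5.11 in flight and 0.76 in the controls, an interaction of 4.34 ± 0.62 (adjusted p = 0.133). It passed without the ced-1 ground control array (adjusted p = 0.0132), and over the alternatives the adjusted p ran up to 0.999.

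**Figure D4:**
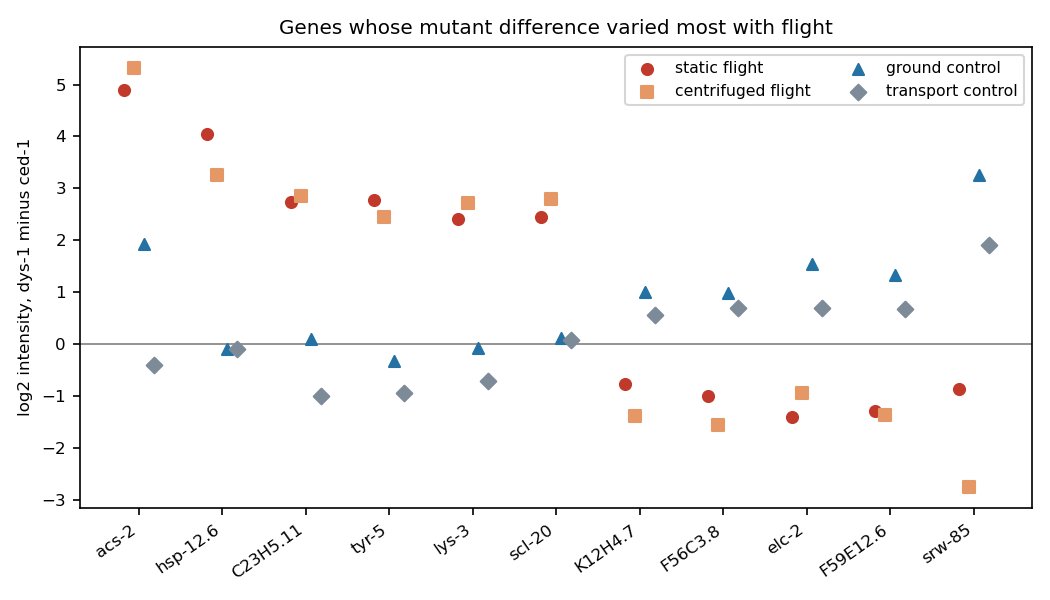
Difference in log2 intensity, dys-1 minus ced-1, in each condition for the 10 genes with the smallest interaction p-values, 5 in each direction, and hsp-12.6, with symbols for the conditions. For the first 6 genes both flown conditions lie above both controls, and for the last 5 below them. No interaction passed the adjusted threshold.

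The lysozyme lys-3 was 9.31, 9.47, 7.25 and 7.57 in dys-1 against 6.91, 6.76, 7.32 and 8.28 in ced-1, with N2 at 6.78, 6.83, 7.65 and 7.77. It was above the other strains only in the flown dys-1 arrays, and the interaction was 2.94 ± 0.41 (limma adjusted p = 0.133). The tyrosinase gene tyr-5, at 10.10, 9.60, 6.87 and 7.22 in dys-1 and 7.34, 7.17, 7.20 and 8.18 in ced-1, had the same form (3.24 ± 0.49, adjusted p = 0.133), as did C23H5.11 (3.25 ± 0.49, adjusted p = 0.133) and scl-20 (2.52 ± 0.41, adjusted p = 0.234). The small heat shock gene hsp-12.6 was 11.34, 12.14, 8.25 and 9.34 in dys-1 and 7.30, 8.89, 8.35 and 9.44 in ced-1. The mutants were about 0.1 from each other in each control and 3.64 apart on average in flight (interaction 3.74 ± 0.63, adjusted p = 0.237).

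In the other direction, the chemoreceptor-family gene srw-85 was 7.26, 6.35, 9.55 and 10.16 in dys-1 and 8.12, 9.10, 6.30 and 8.25 in ced-1. The dys-1 level was below ced-1 in both flown conditions and above it in both controls, an interaction of -4.39 ± 0.62 (limma adjusted p = 0.133). The same crossing was seen for F59E12.6 (-2.33 ± 0.43), the elongin gene elc-2 (-2.30 ± 0.49), F56C3.8 (-2.12 ± 0.46) and K12H4.7 (-1.86 ± 0.40), with adjusted p-values of 0.426 for the first and 0.654 for the others. Each side of this interaction rests on 2 arrays of each mutant, and flown and control conditions also differed in launch and landing, so flight and handling cannot be told apart. The control side also includes the transport control, which was not carried to the launch site.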

How the data were processed

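The authors deposited, for each of the 12 arrays, a linear intensity for 23187 transcript features, normalized with RMA per the submitters' processing notes; the RMA version and the genome build were not given in the sources used here. This method makes array distributions alike, so a change of total RNA per worm is not visible. Intensities ran from 39.8 to 59366.3, with no detection flag, and precision is limited by the number of arrays. Log2 values without a pseudocount were averaged over features into 20018 genes, 19428 of them named through the RefSeq gene table and the rest by the array files. limma 3.58.1 in R 4.3.3 fitted strain plus condition over all 12 arrays (6 residual degrees of freedom), with Benjamini-Hochberg adjustment over all genes, and a second fit added strain by flight (4 residual degrees of freedom). The condition, taken from the labels, paired the arrays: deviations from the strain means correlated between the mutants at 0.439, 0.08, 0.172 and 0.668 in the 4 conditions. The fit was tested on simulated data.

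The members and the 33 gene lists were chosen with earlier results of these data known, and 3 further lists and some named genes after seeing these values. Named genes were dys-1 and ced-1, the 5 smallest p in each direction with the same sign in 4 conditions, the 3 largest differences of each list, and the 5 smallest interaction p in each direction. The genes nlp-27 to nlp-29, egl-3, those of protein synthesis and the further innate immunity genes higher in dys-1 were chosen after their values were seen. Alternatives covered the block, the arrays used, normalization, an offset of 50, dim genes, the variance model and each array left out.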

Additional observations from a re-analysis of the deposited data

Results flagged for a closer look

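Among 258 sets of 4 arrays, for the named genes and the mean intensity in each mutant, 9 held an array farther from the other 3 than Dixon's 95% limit for 4 values allows, fewer than the about 1 in 20 that chance gives. In dys-1 the transport control array was the one apart for 5 genes: C02E7.6 at 10.12 (others 11.87 to 12.10), the sperm gene ssq-2 at 8.38 (10.64 to 10.82), the maternal gene pos-1 at 10.62 (11.87 to 12.08), the channel gene avr-14 at 9.34 (8.29 to 8.46) and the nucleolar GTPase gene nog-1 at 14.35 (14.13 to 14.16). The dys-1 ground control array was apart for the histone gene his-62, at 9.04 against 8.31 to 8.35. In ced-1 the transport control was apart for icl-1, at 14.01 (11.62 to 12.01), and for tyr-5, at 8.18 (7.17 to 7.34), and the ground control for cox-10, at 7.27 (7.95 to 8.02).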

How the results depend on the processing

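No gene was called in the comparison of the mutants on all arrays (limma, adjusted p under 0.05), and alternatives moved that count to 4 without the transport control arrays, 153 with an offset of 50 and 268 with a trended and robust variance, and to between 0 and 335 when single arrays were left out. Without the condition block (no replicate block) it was 0, with a smallest adjusted p of 0.309 and 2332 genes at an unadjusted 0.05 against 3741. Quantile normalization, median centring, array weights, leaving out dim genes and the series value table also gave 0, as did the 8 mutant arrays alone, features fitted singly and variances without moderation. Of the 268 genes, 139 were among the 153 (51.9% and 90.8% of the lists), and 203 among the 335 called without the N2 ground control array (75.7% and 60.6%). The interaction with flight gave 0 to 1 genes over arrays left out. The ced-1 difference in the exact permutation test ran from 0.37 to 0.62 over arrays left out, past the threshold without the ced-1 transport control array (p = 0.0286, the smallest possible). The dys-1 difference ran from -0.19, without the dys-1 transport control array, to 0.29 in that test and from -0.08, without the same array, to 0.29 in limma, where it was -0.02 without all transport controls. Over 2760 alternatives for 116 gene results, 2636 kept their side of the threshold and their sign, 122 passed it and 2 reversed. The cause was not tested. Both strains are single samples in each condition, dim levels sit near an unknown background, and near-identical genes can share probes.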
